A study of Mus musculus with 6 samples.

Results

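The NF-kB subunits and feedback inhibitors described here are 10 genes of the mouse mRNA count table, chosen by gene symbol from a fixed list of names, and all 10 were found among its 17973 rows and passed the filter on low counts. They are Tnf, the Rel family genes Nfkb1, Nfkb2, Rel and Relb, and the feedback genes Nfkbia, Nfkbie, Tnfaip3, Bcl3 and Traf1. They were followed in whole lungs of C57BL/6 mice, in 3 libraries labelled silicosis (N129, N136 and N138) and 3 labelled control (C7, C8 and C9). Per the labels, silicosis was induced by instilling 8 mg of silica, suspended in 40 µL of saline, into the trachea once, and lungs were taken at 90 days; the series text names sterile saline for the comparison animals. The sources used here state no age or sex and do not say whether each library is a separate mouse, so the p-values reflect only how far these libraries spread, which may be technical.

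NF-kB is a family of dimeric transcription factors that inhibitor proteins, the IκBs, hold in the cytoplasm of resting cells. Signals from receptors for tumour necrosis factor, interleukin-1 or microbial products activate IκB kinase, which marks the IκBs for destruction and frees p65 (Rela), c-Rel (Rel) and p50 (Nfkb1) in the canonical branch, while a slower branch processes p100 (Nfkb2) to p52, the partner of RelB. Freed NF-kB switches on genes of inflammation together with genes that stop it again, among them IκBα (Nfkbia) and A20 (Tnfaip3). In lung, alveolar macrophages that take up silica are a well-known source of tumour necrosis factor.

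Of the 10 genes, 9 rose in silicosis at an edgeR adjusted p under 0.05, and Nfkb1 did not pass. The steepest rise was that of Tnf, with a 13.7-fold change, followed by Tnfaip3 (3.59-fold) and Nfkbie (2.82-fold), whereas Traf1 changed by 1.28-fold. Among all 15808 mRNAs tested, 15.3% were higher and 16.5% lower by the same rule. In 9 of the 10 genes each silicosis library lay above each control library, the exception being Nfkbia; over all tested mRNAs 23.7% showed this. The median log2 fold change of the 10 genes was 0.96, and that of all tested mRNAs 0.02. The 10 genes were chosen with earlier results of these data known, so these shares describe them without testing them.

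Promoter sequence is shown for Nfkb2, Rel, Nfkbia and Tnfaip3, a pair of subunit genes and a pair of inhibitor genes. Each window shown holds a match to the motif described below. Windows without a match, those of Tnf and Traf1 among them, are not shown. NF-kB genes are known to be regulated by NF-kB itself, and the part of such regulation in these results was not tested. RefSeq windows of 300 bases, 250 before and 50 after an annotated start (GRCm38.p6), were found for 8 of the 10 genes, 11 windows in all. The windows are chr19:46304487-46304786 (plus strand) for Nfkb2, chr11:23770920-23771219 (minus strand) for Rel, chr12:55492598-55492897 (minus strand) for Nfkbia and chr10:19015361-19015660 (minus strand) for Tnfaip3, each written 5′ to 3′ on the gene's strand. Capitals mark matches to the κB consensus, a motif of 10 letters searched on both strands; adjoining capitals can be overlapping matches.
Nfkb2: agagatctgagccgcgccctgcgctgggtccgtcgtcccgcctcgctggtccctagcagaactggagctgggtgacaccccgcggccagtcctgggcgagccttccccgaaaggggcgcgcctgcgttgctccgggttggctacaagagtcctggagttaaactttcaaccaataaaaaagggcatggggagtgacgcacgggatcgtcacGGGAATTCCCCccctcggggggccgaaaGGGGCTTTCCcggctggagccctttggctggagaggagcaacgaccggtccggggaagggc
Rel: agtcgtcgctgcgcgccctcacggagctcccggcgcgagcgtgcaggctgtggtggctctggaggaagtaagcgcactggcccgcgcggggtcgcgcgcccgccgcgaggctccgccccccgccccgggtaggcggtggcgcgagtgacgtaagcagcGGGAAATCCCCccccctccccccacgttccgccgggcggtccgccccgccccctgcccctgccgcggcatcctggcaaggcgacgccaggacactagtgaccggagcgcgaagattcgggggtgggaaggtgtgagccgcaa
Nfkbia: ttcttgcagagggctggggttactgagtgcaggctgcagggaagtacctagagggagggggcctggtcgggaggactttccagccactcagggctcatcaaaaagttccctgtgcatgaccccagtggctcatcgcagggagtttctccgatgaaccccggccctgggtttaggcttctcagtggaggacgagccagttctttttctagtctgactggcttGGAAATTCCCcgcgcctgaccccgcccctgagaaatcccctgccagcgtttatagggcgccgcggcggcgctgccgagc
Tnfaip3: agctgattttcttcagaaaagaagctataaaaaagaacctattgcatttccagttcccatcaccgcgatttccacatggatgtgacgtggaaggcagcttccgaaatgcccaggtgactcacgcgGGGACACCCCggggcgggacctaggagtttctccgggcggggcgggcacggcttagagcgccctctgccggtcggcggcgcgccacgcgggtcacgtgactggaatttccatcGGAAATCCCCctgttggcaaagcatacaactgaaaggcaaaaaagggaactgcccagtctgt

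The κB consensus was found in at least 1 window of 6 of the 8 genes, and in 9.55% of all 27025 genes with a window. Counted from 1 at the window's 5′ end, the Nfkbia match began at base 222 and read GGGAATTTCC on the opposite strand, and the match of Tnfaip3 nearest the start began at base 239 and read GGGGATTTCC on the opposite strand. The Nfkb2 window shown held 3 matches, at bases 212, 213 and 240, of which the first pair overlap. Windows 2 and 3 of Nfkb2, which overlap each other, held 2 and 1 matches, with the same GGGACTTTCC counted in both. Window 2 of Tnfaip3 held 0. Rel had an overlapping pair at bases 159 and 160. Single matches stood in Nfkbie (GGGGGATTCC at base 145) and Bcl3 (GGGAAGTCCC at base 253), while the windows of Tnf and Traf1 held no match. The looser motif GGGNNNNNCC, which contains the consensus, was found in 7 of the 8 genes and in 53.5% of all genes, so it separates little. A match describes letters in these windows and says nothing about binding of the factor.

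The mRNA table held between 33698920 and 44000748 counts per library. N129 stood apart from the other silicosis libraries in genes known to respond within minutes to stress or handling, a list put together after the data were seen. Fos, a subunit of AP-1, had 245, 52.4 and 31.5 CPM (counts per 1000000 after TMM scaling of the library totals) in N129, N136 and N138, against 30.1, 42.7 and 31.2 CPM in C7, C8 and C9. The summed level of the 11 genes of that list was 2401, 991 and 644 CPM in N129, N136 and N138, against 1069 to 1296 CPM in controls. By edgeR, Atf3 rose, Jun fell and the other 9 did not pass. The part of this difference in the results below was not tested; each member is therefore also given without N129.

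**Figure D1:**
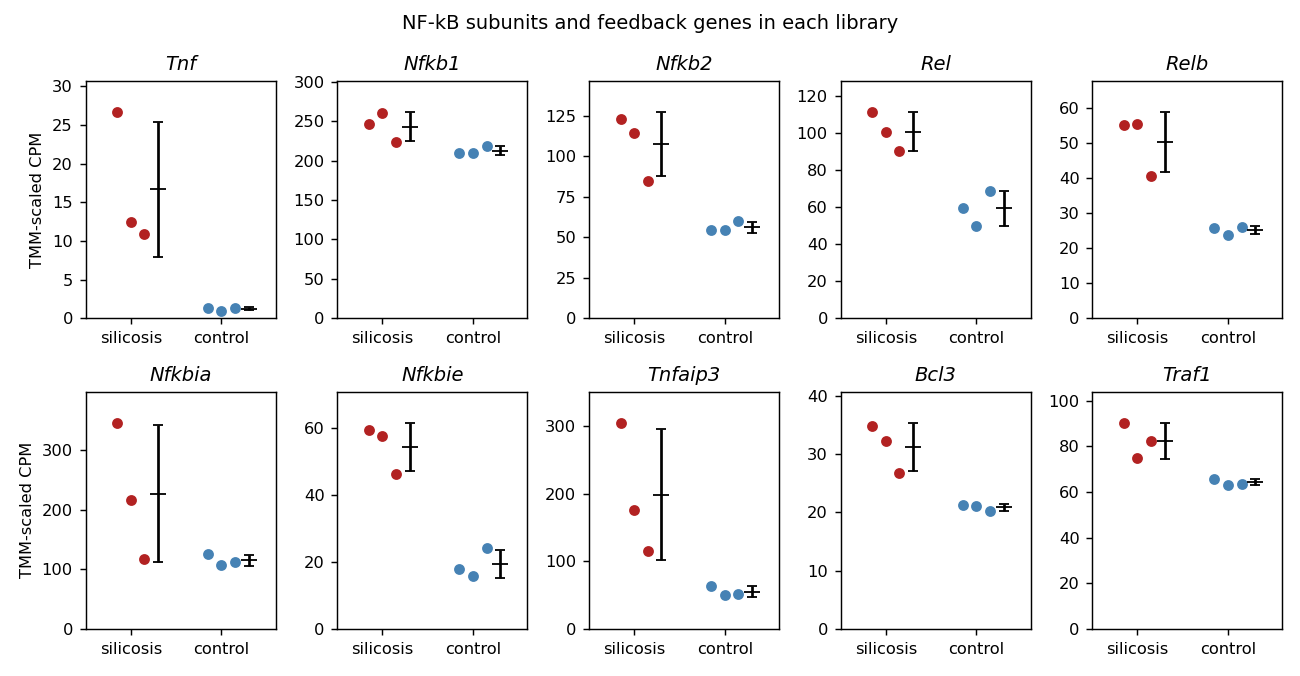
TMM-scaled CPM of each gene in the silicosis libraries (red; N129, N136, N138 from left) and the control libraries (blue; C7, C8, C9 from left), with mean and SD in black. Tnf lies between 10.9 and 26.7 CPM in silicosis and between 0.981 and 1.34 CPM in controls, and Nfkbia is the gene whose groups overlap.

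Tnf encodes tumour necrosis factor, a cytokine that both activates NF-kB and is made under its control. It had 26.7, 12.4 and 10.9 CPM in N129, N136 and N138 (1023, 540 and 393 counts), against 1.34, 0.981 and 1.33 CPM in C7, C8 and C9 (54, 41 and 51 counts). All silicosis libraries were far above all controls, and N129 was the highest. The log2 fold change was 3.77 (SE 0.37, edgeR adjusted p = 0.000189), and 3.26 without N129. By log2 fold change Tnf ranked 93 among the 15808 mRNAs tested. The neighbours of Tnf in its gene cluster, Lta and Ltb, which encode the lymphotoxins and were picked after the data were seen, did not pass: their log2 fold changes were 0.38 (SE 0.52) and 0.52 (SE 0.28).

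Among the Rel family genes, Relb, Nfkb2 and Rel rose and Nfkb1 did not pass. Relb, the subunit of the slower branch, had 55.2, 55.5 and 40.6 CPM in N129, N136 and N138, against 25.8, 23.8 and 26.0 CPM in C7, C8 and C9. The groups were well apart, with N138 the lowest of the silicosis libraries. Its log2 fold change was 0.999 (SE 0.14, edgeR adjusted p = 0.00083), and 0.93 without N129.

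Nfkb2, whose p100 product is both the precursor of p52 and an inhibitor of RelB, had 123, 115 and 85.0 CPM in N129, N136 and N138, against 54.2, 54.4 and 60.1 CPM in C7, C8 and C9. As for Relb, N138 was the lowest silicosis library and still above the controls. Nfkb2 had a log2 fold change of 0.93 (SE 0.14, edgeR adjusted p = 0.0012), and 0.83 without N129. Of the 50-base windows along the longest Nfkb2 transcript, 18.6% also lie in other annotated transcripts, those of Psd and of a lncRNA on the opposite strand. Psd had 772, 682 and 397 counts in N129, N136 and N138 and 424, 375 and 323 counts in C7, C8 and C9, against 3057 to 4993 and 2182 to 2304 for Nfkb2; without a stated strand setting, reads of the shared stretch cannot be told apart.

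Rel, the c-Rel subunit that is prominent in lymphoid and myeloid cells, had 111, 100.5 and 90.4 CPM in N129, N136 and N138, against 59.5, 49.9 and 68.5 CPM in C7, C8 and C9. The silicosis libraries lay close together and the lowest was above the highest control. The log2 fold change was 0.76 (SE 0.13, edgeR adjusted p = 0.00262), and 0.69 without N129. Nfkb1, which encodes p105 and its product p50, had 246, 260 and 223 CPM in N129, N136 and N138, against 210.0, 209.8 and 219 CPM in C7, C8 and C9. The groups did not overlap, but N138 and C9 were only a few CPM apart. The log2 fold change of 0.19 (95% interval -0.01 to 0.40, edgeR adjusted p = 0.136) missed the threshold, and it was 0.18 without N129.

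The feedback inhibitors differed in how evenly they were raised. Nfkbie, which encodes IκBε, had 59.3, 57.7 and 46.1 CPM in N129, N136 and N138, against 18.0, 15.9 and 24.1 CPM in C7, C8 and C9. All silicosis libraries were near each other and well above the controls. For Nfkbie the log2 fold change was 1.49 (SE 0.17, edgeR adjusted p = 0.000347), and 1.43 without N129.

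Tnfaip3, which encodes the ubiquitin-editing enzyme A20 that shuts off signalling from the TNF receptor, had 305, 176 and 115 CPM in N129, N136 and N138, against 64.0, 49.9 and 52.1 CPM in C7, C8 and C9. The silicosis libraries spread widely, with N129 highest, yet all were above the controls. Tnfaip3 had a log2 fold change of 1.85 (SE 0.30, edgeR adjusted p = 0.00203), and 1.40 without N129.

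Nfkbia, which encodes IκBα, the inhibitor resynthesised fastest after activation, had 346, 217 and 118 CPM in N129, N136 and N138, against 126, 107 and 112 CPM in C7, C8 and C9. N138 lay among the controls, so the groups overlapped. The log2 fold change was 0.98 (SE 0.31, edgeR adjusted p = 0.0384). This call ended with DESeq2 (adjusted p = 0.0637), with limma-voom (adjusted p = 0.0673) and without any library except N138, and without N129 the log2 fold change was 0.54 (edgeR adjusted p = 0.121). The authors' deposited table gives Nfkbia an adjusted p of 0.065. It has the same log2 fold change for Nfkbia as the DESeq2 fit here, from the same libraries, and is not a separate result.

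Bcl3, an unusual IκB that acts in the nucleus with p50 or p52, had 34.8, 32.3 and 26.8 CPM in N129, N136 and N138, against 21.2, 21.2 and 20.2 CPM in C7, C8 and C9. The controls were tight and every silicosis library was above them. For Bcl3 the log2 fold change was 0.58 (SE 0.12, edgeR adjusted p = 0.00665), and 0.50 without N129. Traf1, a signalling adaptor of TNF receptors and itself a known NF-kB target, had 90.3, 74.7 and 82.2 CPM in N129, N136 and N138, against 65.6, 63.2 and 63.7 CPM in C7, C8 and C9. The groups were separate but close. Traf1 had a log2 fold change of 0.36 (SE 0.10, edgeR adjusted p = 0.0191), and the call ended without N129 (0.29, adjusted p = 0.0834) and without C7, C8 or C9 (adjusted p = 0.0568, 0.0717 and 0.051).

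**Figure D2:**
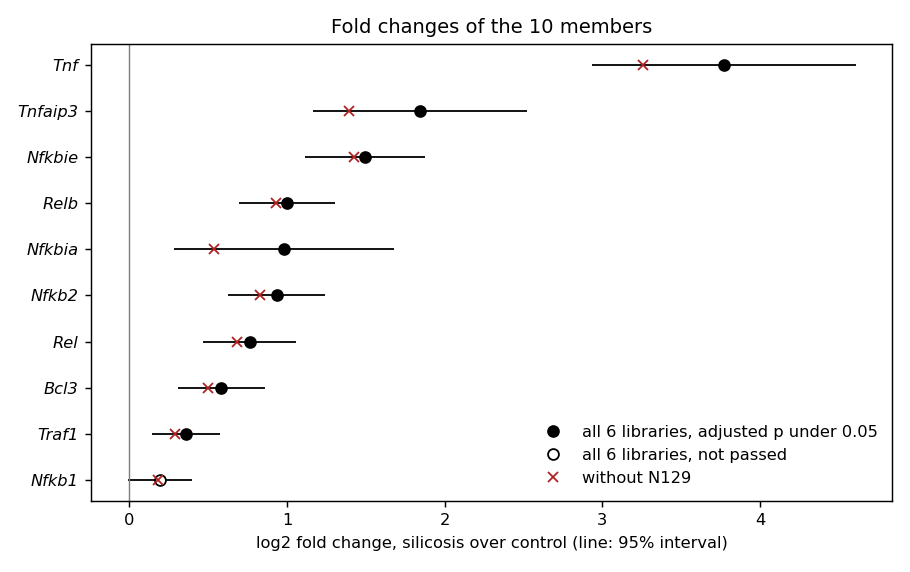
Log2 fold change of each gene, silicosis over control, with its 95% interval from the edgeR fit (black; filled where the adjusted p was under 0.05) and the estimate without N129 (red crosses). Leaving out N129 lowers Tnf to 3.26, Tnfaip3 to 1.40 and Nfkbia to 0.54, while Nfkbie stays at 1.43 and Relb at 0.93.

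Within the silicosis group, 7 of the 10 genes (Tnf, Nfkb2, Rel, Nfkbia, Nfkbie, Tnfaip3 and Bcl3) had their highest level in N129 and their lowest in N138, with N136 between. Every gene of the early-response list had the same order except Egr1 (275, 31.7 and 37.2 CPM in N129, N136 and N138). So had all 5 T cell markers, whose summed level was 110, 71.4 and 42.6 CPM in these libraries. The share of all tested mRNAs in this order was not determined. The part of the early-response genes and T cell markers in it was not tested. Relb and Nfkb1 were highest in N136, and Traf1 was lowest there. With 3 libraries per group no relation between these profiles was tested.

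**Figure D3:**
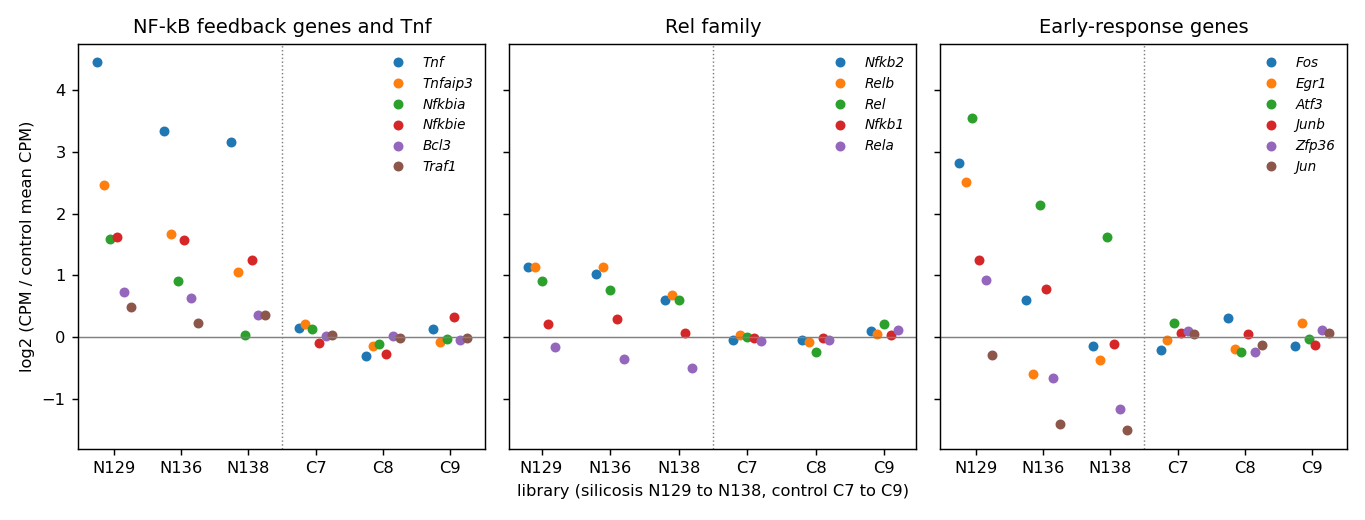
Log2 of CPM over the control mean in each library, silicosis libraries left of the dotted line and controls right of it, for Tnf and the feedback genes, the Rel family with Rela, and 6 early-response genes. Nfkbia falls to the control level in N138, while Nfkbie, Nfkb2, Relb and Rel are above 0 in all 3 silicosis libraries.

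Levels can be set between genes only per transcript length, here CPM per kilobase of the longest annotated transcript. In silicosis the order was Nfkbia (144 ± 72.5), Nfkb1 (58.6 ± 4.49), Tnfaip3 (32.1 ± 15.7), Nfkb2 (28.0 ± 5.18), Traf1 (24.0 ± 2.27), Nfkbie (18.1 ± 2.38), Bcl3 (16.9 ± 2.23), Relb (15.4 ± 2.61), Rel (13.5 ± 1.41) and Tnf (10.2 ± 5.31; SD, n = 3). In controls the order was Nfkbia (72.8 ± 6.23), Nfkb1 (51.3 ± 1.26), Traf1 (18.7 ± 0.37), Nfkb2 (14.6 ± 0.873), Bcl3 (11.3 ± 0.304), Tnfaip3 (8.93 ± 1.22), Rel (7.94 ± 1.24), Relb (7.71 ± 0.37), Nfkbie (6.42 ± 1.42) and Tnf (0.743 ± 0.125). The upper pair in each list were apart from the rest in every library. In silicosis the ranges of neighbours from Tnfaip3 downward overlapped except between Traf1 and Nfkbie. In controls only neighbours from Tnfaip3 to Nfkbie overlapped.

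Ratios of counts of gene pairs within a library do not depend on how libraries are scaled. For the 12 ratios compared, an exact two-sided permutation test over 3 against 3 libraries cannot give a p below 0.1, and the lowest Benjamini-Hochberg value over these 12 was 0.15. Relb counts per Rela count, p65 being the main activating subunit, were 0.527, 0.607 and 0.492 in N129, N136 and N138, against 0.231, 0.212 and 0.207 in C7, C8 and C9. Rel counts per Rela count were 1.06, 1.10 and 1.10 in the silicosis libraries, against 0.532, 0.444 and 0.543 in the control libraries. Both ratios were higher in silicosis without overlap, by 1.32 and 1.11 on the log2 scale (exact permutation p = 0.1 for each).

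Nfkb2 per Nfkb1 was higher in silicosis by 0.73 on the log2 scale, Nfkb1 per Rela by 0.52, Bcl3 per Nfkb1 by 0.39, Tnfaip3 per Rela by 2.07 and Nfkbia per Rela by 1.18, each with no overlap between groups (exact permutation p = 0.1). Rela itself had a log2 fold change of -0.33 (SE 0.11), which enters every ratio per Rela. Nfkb1 itself did not pass (0.19, edgeR adjusted p = 0.136). The share of all gene pairs without overlap was not determined. Nfkbie per Nfkbia was 0.172, 0.266 and 0.393 in N129, N136 and N138, against 0.143, 0.149 and 0.215 in C7, C8 and C9, and overlapped (exact permutation p = 0.2). N138 had the highest share of the IκBε transcript, and N129 lay within the control range.

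In bulk lung, more cells of a type and more RNA per cell cannot be told apart. Ptprc, the pan-leukocyte marker CD45, rose by 0.61 on the log2 scale (SE 0.12, edgeR adjusted p = 0.00505). Tnf counts per Ptprc count were higher in silicosis by 3.04 on the log2 scale, at 0.0203 to 0.0427 in the silicosis libraries and 0.00293 to 0.00399 in the control libraries, with no overlap (exact permutation p = 0.1). For Relb per Ptprc the difference was 0.37 (exact permutation p = 0.2), for Nfkbia per Ptprc 0.23 (exact permutation p = 0.6) and for Traf1 per Ptprc -0.26 (exact permutation p = 0.2), and these 3 overlapped between groups. Without N129 the Nfkbia per Ptprc difference turned to -0.0619, and without N138 it was 0.61. These ratios hold for Ptprc alone: of the other leukocyte markers Cd53 rose by 1.46 (SE 0.15) and Coro1a by 0.64 (SE 0.14), and Laptm5 did not pass (0.37, SE 0.15), while the myeloid markers Cd14 and Itgam rose by 2.60 (SE 0.18) and 1.77 (SE 0.22). By log2 fold change, Relb (0.999), Nfkbia (0.98) and Traf1 (0.36) rose less than Cd53, Cd14 or Itgam, while Tnf (3.77) rose more. Cd53 was the steepest leukocyte marker, and Cd14 and Itgam were the steepest monocyte and macrophage markers. Relb and Nfkbia were also below Lyz2. They were above all other markers of these lists: Ptprc, Coro1a, Laptm5, Csf1r, Adgre1, Ccr2 and, narrowly, Cd68 (0.96). Traf1 was above only Csf1r and Ccr2. Ratios of counts against these other markers were not computed.

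Cell type markers moved beside these genes. Of 7 monocyte and macrophage markers 6 rose, and their summed level was 5570 to 10028 CPM in silicosis and 3114 to 3702 CPM in controls. Of 5 neutrophil markers 3 rose (229 to 356 CPM in silicosis, 84.0 to 149 CPM in controls). These sums were higher in every silicosis library, but the monocyte and macrophage sum was mostly Lyz2 (5460 of 5959 CPM in N129). Ccr2, Cxcr2 and Retnlg did not pass, and Retnlg had a log2 fold change of -0.52 (SE 0.34). The 5 T cell markers (42.6 to 110 CPM in silicosis, 60.4 to 92.2 CPM in controls) and the 5 dendritic cell markers (161 to 173 CPM in silicosis, 163 to 198 CPM in controls) did not pass. The summed levels of the T cell and dendritic cell lists overlapped between the groups. All 4 endothelial markers fell (1592 to 1730 CPM in silicosis, 3106 to 3619 CPM in controls). Of 5 epithelial markers 2 fell, Epcam and Scgb1a1 (list sums 13690 to 16354 and 19126 to 27026 CPM). This sum was mostly Sftpc, which did not pass (means 9119 and 9438 CPM), and Scgb1a1 (means 5541 and 12529 CPM). Of 4 fibroblast markers Col1a1 and Col1a2 rose while Pdgfra and Tcf21 fell (2043 to 2526 and 1487 to 1998 CPM, mostly Col1a1 and Col1a2). The part of these cell type markers in the results for the 10 genes was not tested.

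**Figure D4:**
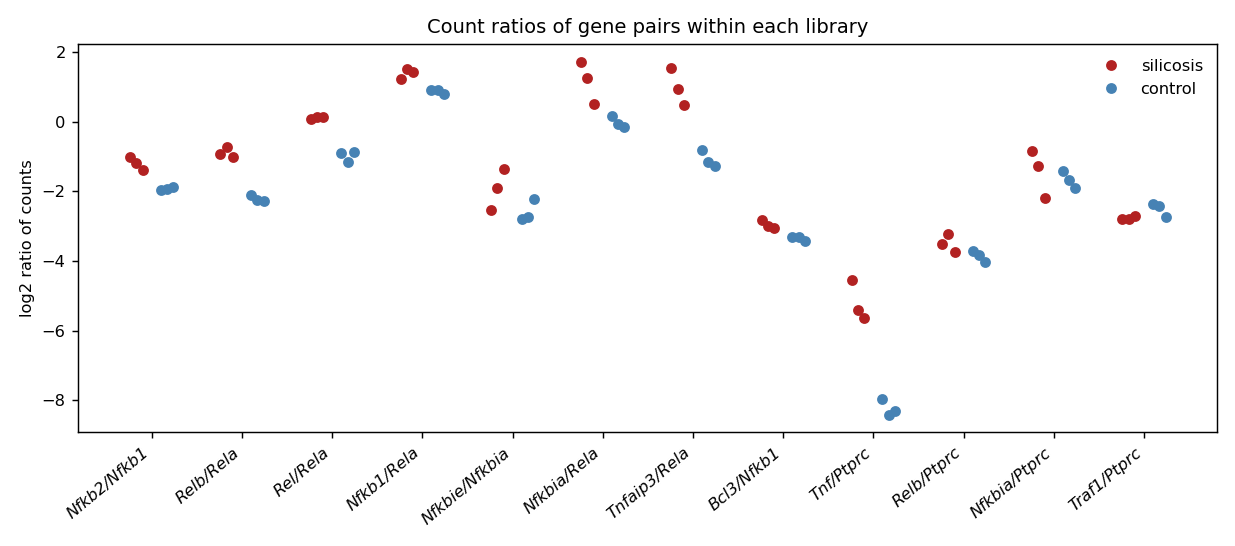
Log2 ratio of the counts of gene pairs in each library, silicosis in red and control in blue (libraries in the order N129, N136, N138 and C7, C8, C9). Relb/Rela, Rel/Rela and Tnf/Ptprc are separated between groups, and Nfkbia/Ptprc and Nfkbie/Nfkbia overlap.

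The remaining Rel and IκB genes did not all follow. Rela, which encodes p65, had 105, 91.5 and 82.5 CPM in N129, N136 and N138, against 112, 112 and 126 CPM in C7, C8 and C9. It fell by 0.33 on the log2 scale (SE 0.11, edgeR adjusted p = 0.0456), a call that held without N129 but ended when any other library was left out (adjusted p between 0.0835 and 0.126). Nfkbid (IκBNS), a nuclear IκB, rose by 1.10 (SE 0.21). Nfkbib, which encodes the classical inhibitor IκBβ, did not pass (-0.20, SE 0.20). Nfkbiz (IκBζ), a nuclear co-activator, had 146, 65.3 and 66.3 CPM in N129, N136 and N138, against 42.4, 42.1 and 51.2 CPM in C7, C8 and C9. Its rise of 1.03 (SE 0.28, edgeR adjusted p = 0.0228) was 0.54 without N129, and its call ended without C7 or C8 (edgeR adjusted p = 0.075 for both).

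Upstream of NF-kB, the receptor list rose in part. Of 9 receptors 5 rose and 4 did not pass, with a median log2 fold change of 0.70. For this list and those below, the shares of all tested mRNAs were 15.3% higher and 16.5% lower by the same rule. Tlr2, a sensor of bacterial lipoproteins, rose by 1.76 (SE 0.16), and Tnfrsf11a, the receptor of RANKL, by 1.22 (SE 0.15). Tnfrsf1b, the second TNF receptor, had 228 ± 32.7 CPM in silicosis and 91.1 ± 8.46 CPM in controls (SD, n = 3), whereas Tnfrsf1a, the broadly expressed TNF receptor, did not pass (0.08, SE 0.13).

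Of 12 kinases and their partner proteins 4 rose, 1 fell and 7 did not pass, with a median of 0.21. With 16.5% of all tested mRNAs lower, the 1 fall does not set this list apart. The list holds the IκB kinase scaffold Ikbkg and the TAK1 partners Tab1, Tab2 and Tab3, which are not kinases, so 3 of those that rose are kinases and none of the kinases fell. Ikbke, the IκB kinase relative known from interferon signalling, rose by 1.06 (SE 0.17), Map3k8 (Tpl2), which binds p105, by 0.65 (SE 0.10) and Chuk, the IKKα subunit, by 0.59 (SE 0.10). Ikbkg rose by 0.34 (SE 0.09), and Ikbkb, the IKKβ subunit, had a log2 fold change of 0.01 (SE 0.12). Tab2, an adaptor of the kinase TAK1, fell by 0.38 (SE 0.10). Without N129 its log2 fold change was as large, -0.38, but missed the threshold (edgeR adjusted p = 0.0522). Of 14 adaptors and ligases 7 rose and 7 did not pass, with a median of 0.23. The ubiquitin ligases Birc2 and Birc3 rose by 0.93 (SE 0.11) and 0.96 (SE 0.16), and Traf3, which restrains the slower branch, by 0.63 (SE 0.11).

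Of 14 other brakes on the pathway 6 rose, 2 fell and 6 did not pass, with a median of 0.29. As 16.5% of all tested mRNAs were lower, the 2 falls do not set this list apart either. Tnip3, an A20-binding protein, had 12.8 ± 4.003 CPM in silicosis and 3.29 ± 0.632 CPM in controls (SD, n = 3), a log2 fold change of 1.96 (SE 0.26), and Zc3h12a (regnase-1), an RNase that degrades cytokine mRNAs, rose by 1.10 (SE 0.13). Pdlim2, which promotes destruction of nuclear p65, fell by 0.74 (SE 0.08), and Otud7b (Cezanne), a deubiquitinase, fell by 0.49 (SE 0.12). The Otud7b call ended without C7 or C8 (edgeR adjusted p = 0.0574 and 0.0571).

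Known NF-kB targets had the highest median of these lists, 1.43 on the log2 scale. Of 26 targets 19 rose, 1 fell and 6 did not pass. Cxcl2, a neutrophil chemokine, had 63.5, 41.5 and 25.5 CPM in N129, N136 and N138, against 0.199, 0.335 and 0.313 CPM in C7, C8 and C9. Cxcl5, a related chemokine, rose by 7.21 (SE 0.35) and Ccl2, which attracts monocytes, by 5.41 (SE 0.21). Bcl2l1, the survival gene encoding Bcl-xL, fell by 0.43 (SE 0.11), a call that ended without C7 or C8 (edgeR adjusted p = 0.0648 and 0.0541). Icam1, the adhesion molecule, named after its values were seen, did not pass (0.36, SE 0.16, edgeR adjusted p = 0.119). These lists were drawn up with earlier results of the same libraries known, and their counts describe them without testing them.

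**Figure D5:**
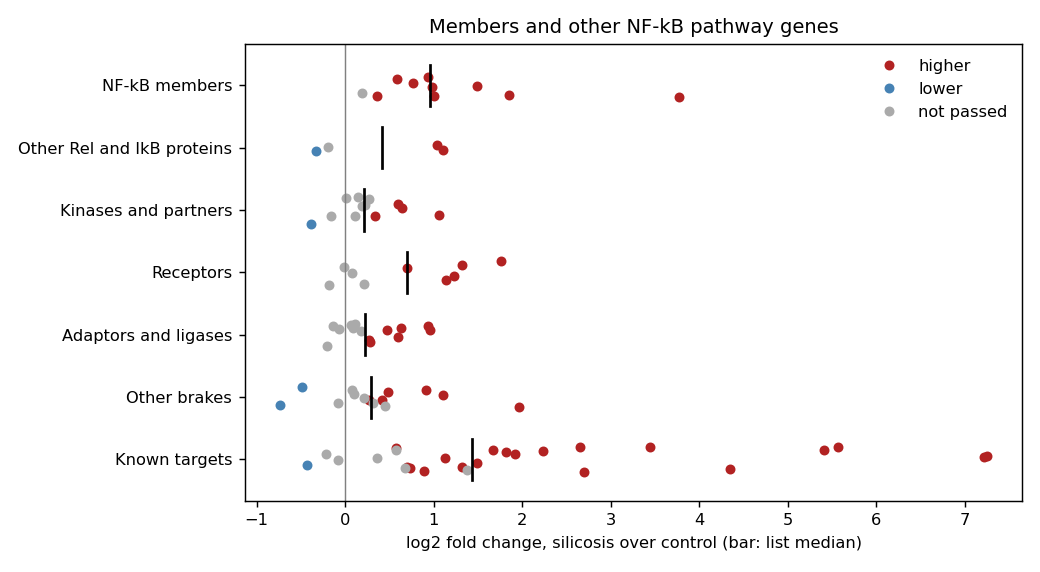
Log2 fold change, silicosis over control, of the 10 genes and of the other pathway lists; each point is a gene, coloured red if it rose, blue if it fell and grey if it did not pass, and black bars are list medians. The medians run from 0.21 for kinases and partners to 1.43 for known targets, with 0.96 for the 10 genes.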

How the data were processed

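RNA of 6 lung libraries, 3 silicosis and 3 control, was compared. Named in the submitters' processing notes, without roles, are featureCounts 2.0.0, HISAT2, DESeq2 1.36.0, Bowtie2 and Trimmomatic 0.39, and the build GRCm39; no source used here states a strand setting or annotation. The authors deposited raw counts per gene symbol, and a comparison table with log2 fold changes and adjusted p-values, of which only the value for Nfkbia is quoted. With edgeR 4.0.16 (R 4.3.3), genes were kept by filterByExpr (15808 of 17973), scaled by TMM and tested two-sided by quasi-likelihood F, with p adjusted by Benjamini-Hochberg over all genes kept and a threshold of 0.05. The SE is the log2 fold change divided by the square root of F. Ratios add 0.5 to each count. Pairs of libraries within a group differed beyond sampling noise (chi-square per degree of freedom 15.0 to 79.0). The fit was also run on counts simulated from its own means and dispersions, which cannot show whether that model suits these data. Transcript lengths and shared windows (50 bases, every 5) come from GENCODE on GRCm38, an earlier build than the authors'. Results were recomputed with each library left out, with limma-voom (limma 3.58.1), with DESeq2 1.42.0, with its size factors in edgeR and without a filter; for ratios, no pseudocount; for lengths, the median transcript.

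From each pathway list, the 3 called genes with the lowest p and any called gene moving against its list are named, and other genes were singled out after their values were seen. The members and lists were chosen with earlier results of these data known. The lncRNA counts were used only to look up transcripts overlapping the members, and circRNAs were not used here. One marker list is not reported here.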

Additional observations from a re-analysis of the deposited data

How the results depend on the processing

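Tnf, Nfkb2, Rel, Relb, Nfkbie, Tnfaip3 and Bcl3 kept their call under all 10 alternatives, and Nfkb1 missed the threshold under all. The number of the 10 genes called was 8 with DESeq2 and with limma-voom, 9 with DESeq2 size factors and without a filter, and 7 to 9 when a library was left out. Over all mRNAs, 1617 to 2580 were higher and 1867 to 2633 lower when a library was left out. With a library left out, the counts in the pathway lists ranged from 1 to 2 higher and 0 to 1 lower among other Rel and IκB genes, 0 to 1 lower among kinases and partners, 0 to 1 lower among receptors, 4 to 6 higher among adaptors and ligases, 1 to 2 lower among other brakes, and 0 to 1 lower among known targets. Listed are the counts that moved by more than 1.5-fold or to or from 0, and the cause was not tested. Smaller shifts occurred too: 6 other brakes rose with all libraries, and 4 without N129 or without N136. The difference in Nfkbia per Ptprc ranged from -0.0619 on the log2 scale, a reversal, without N129 to 0.61 without N138. With the median transcript length, Rela (149) stood above Nfkbia (101) in controls and Bcl3 reached 52.3 CPM per kilobase in silicosis, so the order of levels depends on the transcript chosen. Leaving out a library leaves 2 in its group. No paired analysis was possible because the groups share no replicate numbers. Intervals here reflect the spread of 3 libraries per group, with each gene's spread drawn by edgeR toward that of the other genes.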
